A study of Mus musculus with 6 samples.

Results

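Marrow cells were chosen by the measured UMIs of 4 genes of the eosinophil lineage: Siglecf, which encodes a sialic acid-binding surface lectin, Ccr3, the eotaxin receptor, Epx, eosinophil peroxidase, and Il5ra, the receptor chain for interleukin 5. A cell was a member when these genes summed to at least 2 UMIs and the basophil proteases Mcpt8 and Prss34 summed to fewer than 5. The rule was met by 99 of 11658 kept marrow cells, those with 200 or more genes, 500 or more UMIs and no more than 10% of UMIs from mitochondrial genes. Of the 99, 65 came from the library labelled WT and 34 from the library labelled Cysltr1 KO. Since these values picked the members, the levels of the 4 genes below are descriptions.

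The study measured single cells of mice bearing EMT6 tumors, a mouse mammary carcinoma line, with 6 libraries for 3 tissues and 2 genotypes. The groups used here were marrow of BALB/c mice labelled WT and marrow of mice labelled Cysltr1 KO, for the gene of a cysteinyl leukotriene receptor. Each was 1 library from a pool of 3 mice, enriched for hematopoietic progenitors with an isolation kit before capture. All groups bore tumors, and age and sex are not described here. With 1 library per genotype there was no test between genotypes, and the 95% intervals given are exact Poisson intervals for UMIs and exact binomial (Clopper-Pearson) intervals for shares, which cover counting error only. Cysltr1 itself ran against the labels, with 4.83 CPM (the gene's UMIs over all UMIs of the set, on the usual CPM scale) over the kept cells labelled WT and 24.5 CPM over those labelled KO, so the libraries are called by their labels. The members held 1 and 2 Cysltr1 UMIs, below the floor of 3 counts.

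Eosinophils arise in the marrow from granulocyte progenitors under the transcription factors GATA1 and C/EBPε, with interleukin 5 as the main growth and survival signal. As they differentiate they transcribe large amounts of granule proteins: major basic protein (Prg2), its homologue Prg3, eosinophil peroxidase and the eosinophil-associated ribonucleases (Ear genes). Neutrophil precursors instead make the azurophil granule proteins neutrophil elastase (Elane), myeloperoxidase (Mpo), proteinase 3 (Prtn3) and cathepsin G (Ctsg). Siglecf and Ccr3 mark mature eosinophils in blood and tissue.

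The sequences upstream of Epx and Siglecf, the genes by which the members divided, and of the granule gene Prg3 are shown. Each is the 150 bases before the RefSeq start in build GRCm38.p6, 5′ to 3′ on the gene's strand, with GATA or its reverse complement TATC, the core recognised by GATA factors, in capitals.
Epx: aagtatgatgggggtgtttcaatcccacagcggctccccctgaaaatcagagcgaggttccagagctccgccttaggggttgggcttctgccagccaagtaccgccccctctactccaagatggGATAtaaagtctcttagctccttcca
Prg3: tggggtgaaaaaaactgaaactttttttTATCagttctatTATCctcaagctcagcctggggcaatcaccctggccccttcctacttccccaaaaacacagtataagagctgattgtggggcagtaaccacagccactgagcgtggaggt
Siglecf: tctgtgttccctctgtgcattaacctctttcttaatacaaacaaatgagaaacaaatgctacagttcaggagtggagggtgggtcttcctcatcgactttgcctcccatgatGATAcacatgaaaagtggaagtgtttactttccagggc
They lie at chr11:87875537-87875686 (minus strand, Epx), chr2:84988065-84988214 (plus, Prg3) and chr7:43351191-43351340 (plus, Siglecf). The 4 letters begin 26 bases before the start in Epx, 122 and 110 bases before it in Prg3 and 38 bases before it in Siglecf. Of 32851 RefSeq promoters in windows of 150 bases, 35.7% hold GATA or TATC, so a match is common and is a description of sequence only. In the GENCODE annotation of the same build, Epx is at chr11:87864000-87875536 (minus), Siglecf at chr7:43351341-43359531 (plus), and Prg2 and Prg3 are neighbours at chr2:84980461-84983632 and chr2:84988215-84993886 (both plus).

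The members fell into 2 groups that hardly shared the genes of the rule. Epx UMIs were present in 29 members labelled WT and 16 labelled KO, called Epx-positive members below. The other 36 and 18, the Epx-negative members, qualified almost wholly through Siglecf: 28 and 17 held exactly 2 Siglecf UMIs, 6 and 1 held 3, and in the library labelled WT 1 cell held 2 Il5ra UMIs and 1 a single UMI of each. Both Epx and Siglecf were found in only 6 members labelled WT and 2 labelled KO. Ccr3 was at 0 UMIs in all 99 members, and Il5ra was found in 4 and 2 of them. The plot of UMIs by member shows the division gene by gene.

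**Figure D1:**
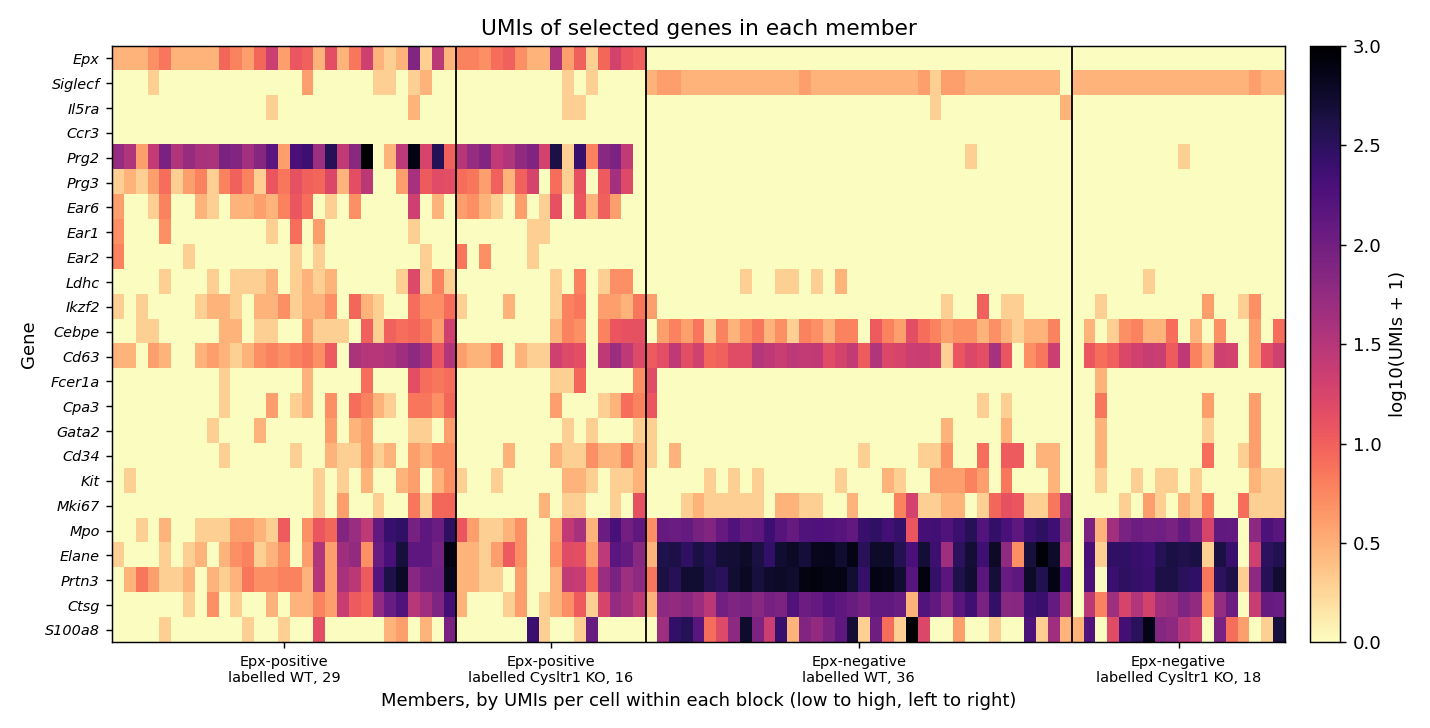
UMIs of 24 genes (rows, colour on a log10(UMIs + 1) scale) in each of the 99 members (columns, ordered by UMIs per cell within each block). Prg2 and Prg3 are found in most columns of the 2 Epx-positive blocks and are blank in the Epx-negative blocks apart from 1 Prg2 UMI in each library, where Elane, Prtn3 and Mpo fill most columns.

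The label of eosinophil lineage held for most Epx-positive members by their granule genes, and went against the data for most Epx-negative members. Of the Epx-positive members 1 in each library held no Prg2, Prg3 or Ear UMI, and 4 of 29 and 2 of 16 held fewer than 5 Prg2 UMIs. In Epx-positive members Prg2 was at 0 UMIs in the lowest cell, 47 in the median and 1548 in the highest of the library labelled WT, and at 0, 42.5 and 414 in the library labelled KO. Prg3 was found in 27 of 29 and 13 of 16 cells, Ear6 in 16 and 11. Among the Epx-negative members, Prg2 gave 1 UMI in each library, and Prg3, Ear6, Ear1 and Ear2 gave 0. Elane there had a median of 451.5 UMIs per cell labelled WT and 274.5 labelled KO, and Mpo of 171.5 and 84.5. The Epx-negative members are given no cell type name here.

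The share of UMIs taken by each granule programme was also found per cell. Prg2, Prg3 and the Ear genes together took a median of 4.59% of the UMIs of Epx-positive members labelled WT and 2.81% of those labelled KO, up to 15.8% and 8.44%. In Epx-negative members this share had a median of 0% in both libraries. Elane, Mpo and Prtn3 together took a median of 6.48% and 7.30% of UMIs in Epx-negative members and 0.637% and 0.833% in Epx-positive members. The programmes were not exclusive by barcode: 11 of 29 and 5 of 16 Epx-positive members gave at least 1% of their UMIs to these 3 azurophil genes. In 10 and 6 the azurophil share was above the eosinophil granule share. The 11 included the 3 Epx-positive members labelled WT that were scored as doublets. Each of these counts also included 1 cell with no Prg2, Prg3 or Ear UMI. The part of doublets in this overlap was not tested.

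**Figure D2:**
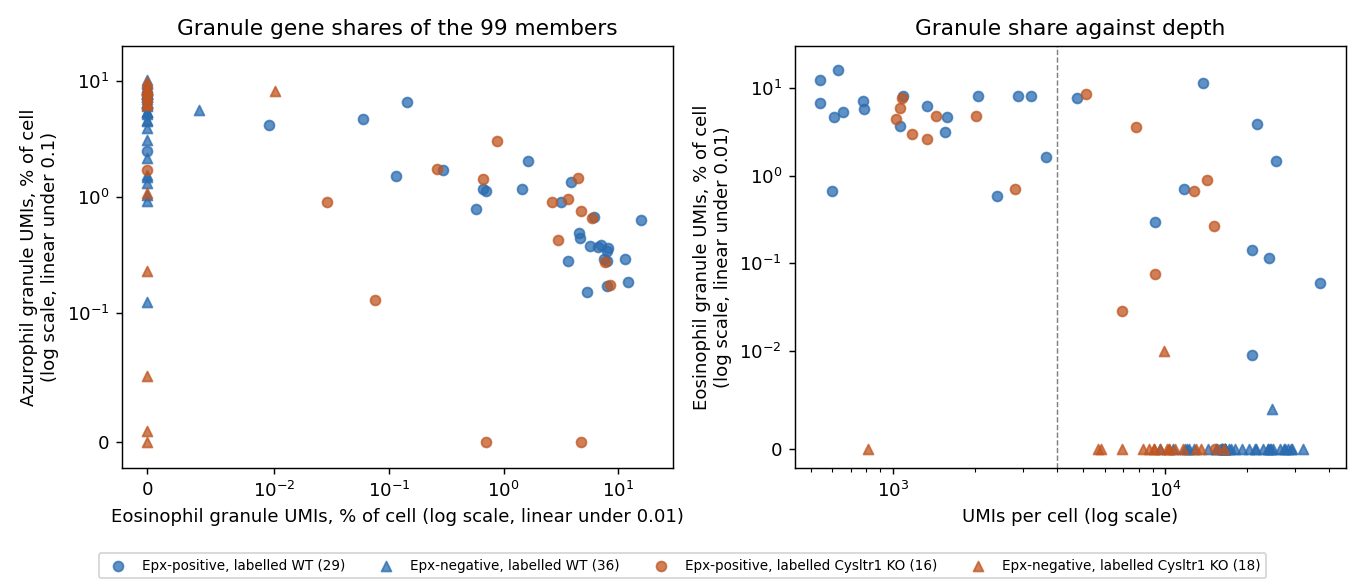
Left, the share of each member's UMIs from Prg2, Prg3 and Ear genes (x) against that from Elane, Mpo and Prtn3 (y); right, UMIs per cell (x) against the eosinophil granule share (y), with a dashed line at 4000 UMIs. Circles are Epx-positive and triangles Epx-negative members, blue for the library labelled WT and orange for the library labelled KO. Epx-negative members lie at or near 0 on the eosinophil axis.

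Against all other kept marrow cells of the same library, the Epx-positive members were set apart first by the other granule genes. The CPM of a set sum UMIs over its cells, so cells with more UMIs weigh more. Cells of 4000 or more UMIs, 11 labelled WT and 8 labelled KO, supplied 206143 of 232106 and 86579 of 98530 UMIs. Prg2 was at 19142 CPM (95% interval 18583 to 19713) in the members labelled WT against 47.5 in other cells, and at 12352 CPM (11667 to 13065) against 74.4 in the library labelled KO, ratios of 403 and 166. Prg3 reached 982 against 2.83 CPM and 1421 against 3.25 CPM. Ear6, a ribonuclease of a family of near-identical copies whose reads may be shared, reached 306 against 1.87 CPM and 518 against 1.05 CPM. Ear1 was at 86.2 and 20.3 CPM, the latter from 2 UMIs, and Ear2 at 38.8 and 112 CPM.

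A gene was called higher or lower when its ratio was at least 2-fold in both libraries with non-overlapping counting intervals in each, at least 20 UMIs over both libraries and a mean of at least 50 CPM in the higher set. By that rule 51 of 2386 genes (2.14%) were higher in Epx-positive members and 90 of 2762 (3.26%) were lower. Of 12 granule protein genes besides Epx, 7 had enough UMIs; 5 were higher (Prg2, Prg3, Ear6, Ear1 and Ear2) and none lower, with a median log2 ratio of 4.71 labelled WT and 3.40 labelled KO, beside -0.07 and -0.03 over all genes measured. The list of 12, also used below, includes Cst7 and Ctsg, and Ctsg is counted among the neutrophil markers too. The 29 and 16 cells share a library and are not replicates.

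The other leading genes included enzymes, a transcription factor and membrane proteins. Ldhc, a lactate dehydrogenase subunit best known from testis, was at 155 against 3.63 CPM in the library labelled WT and at 152 against 5.15 CPM in the one labelled KO. Ikzf2, which encodes the zinc finger factor Helios, was at 250 against 22.7 CPM and at 294 against 19.8 CPM. Arsb, a lysosomal sulfatase, was 4.49-fold and 4.04-fold higher, and Csf1, the macrophage growth factor, 4.01-fold and 4.30-fold on 14 and 7 UMIs. Cd63, a granule membrane tetraspanin, was at 1633 and 1827 CPM against 512 and 549. Cited2, a transcriptional coregulator, was at 836 and 1066 CPM against 245 and 281. Vat1, Ankrd28, Serpine2, Csgalnact2, Myct1, Irak3, Rnf125, Dnajb4, Gadd45a, Tent5a and Abcb10 completed the leading 25 together with Cebpe, Hdc and Myb, and for these genes the smaller of the 2 libraries' log2 ratios lay between 1.46 and 2.38.

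Among 21 transcription factors listed for the lineage, 10 were measured, 3 were higher and 1 was lower. Cebpe, required for terminal granulocyte maturation, was at 327 CPM against 106 and at 518 against 124. Ikzf2 and Trib1, a pseudokinase that controls C/EBP proteins, were the others, Trib1 at 2.21-fold in both libraries. Cebpb was lower, at 164 and 183 CPM against 440 and 478. Gata1 gave 7 and 2 UMIs and Gata2 16 and 3, too few to be measured by the rule, and Id2, a factor reported in eosinophil development, was at 0 in both. Myb, a factor of early progenitors, was at 694 and 873 CPM against 245 and 195. With cells thinned to 2000 UMIs, which left 16 and 10 Epx-positive members, Cebpe, Ikzf2, Ldhc, Arsb, Hdc, Serpine2, Ear1 and Ear2 kept their direction and lost the call, and Prg2, Prg3, Ear6, Cd63, Cited2 and Myb kept both.

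Receptors of the lineage gave few UMIs. None of the 22 cytokine receptor genes was called, with 6 measured; Csf2rb, the shared beta chain of the interleukin 5 and interleukin 3 receptors, was at 86.2 and 50.8 CPM against 71.5 and 68.6. Il5ra gave 3 and 2 UMIs in Epx-positive members. Of the leukotriene and prostanoid synthesis genes 5 of 23 were measured, none was higher and 1, Mgst2, was lower. Alox5ap, the protein that presents arachidonic acid to 5-lipoxygenase, was at 534 and 426 CPM against 764 and 950, and Lta4h, which makes leukotriene B4, at 336 and 244 CPM against 267 and 259. Cysltr1 gave 0 and 1 UMIs and Cysltr2 0 in both.

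Genes of other lineages separated the Epx-positive members from most marrow cells. Of 18 neutrophil and promyelocyte markers 17 were measured and 12 were lower, with medians of -4.54 and -2.43 on the log2 scale. Camp, a secondary granule protein, was at 8.62 and 152 CPM against 2374 and 4719, Ngp at 12.9 and 223 against 3394 and 6499, and S100a8 at 461 and 3654 against 9964 and 19651. In the library labelled KO 245 of the 360 S100a8 UMIs were in 1 cell. Mpo, by contrast, was at 6579 and 6384 CPM, 1.26-fold and 1.48-fold the level of other cells. Chil3, Cd177, Cstdc5 and Cd74 were at 0 UMIs in Epx-positive members of both libraries; against the floor of 3 UMIs over the group, Cd177 was at least 7.08-fold lower labelled WT and at least 5.79-fold lower labelled KO. Of 7 monocyte and macrophage markers measured, 5 were lower.

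**Figure D3:**
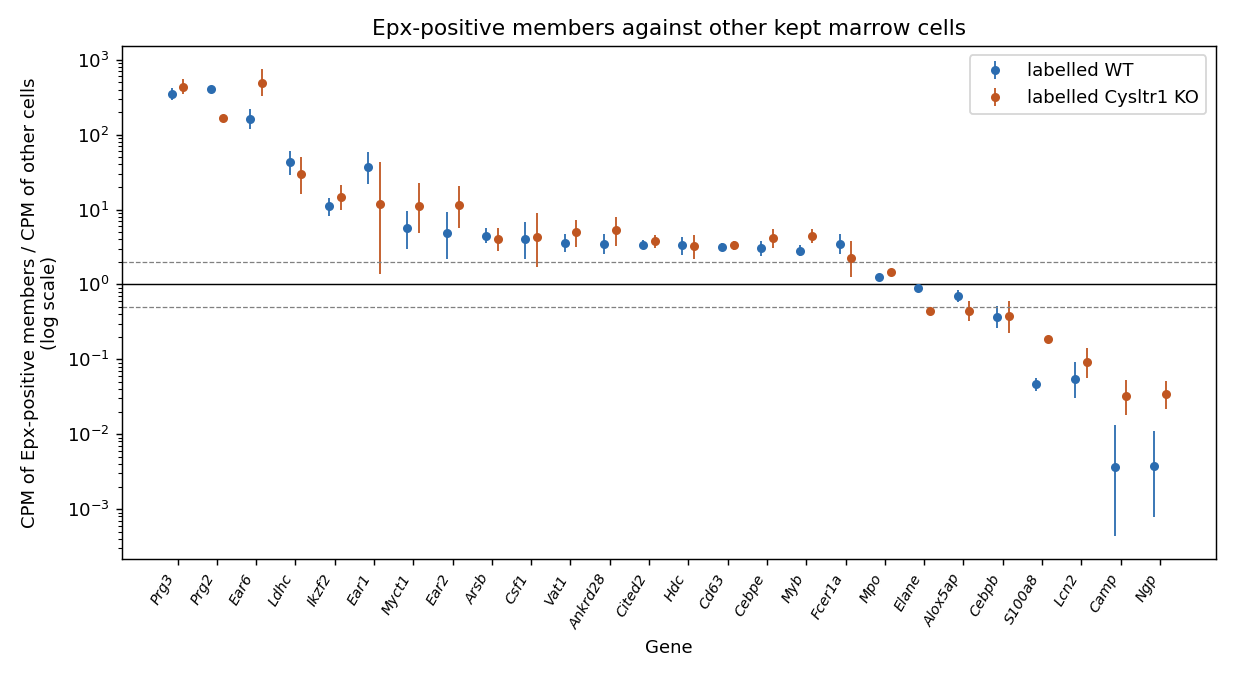
Ratio of CPM in Epx-positive members to CPM in all other kept cells (log scale) for 26 genes in the library labelled WT (blue) and the library labelled KO (orange); bars are 95% counting intervals and dashed lines mark 2-fold. Prg3, Prg2 and Ear6 stand above 100 in both libraries, Mpo near 1, and Camp and Ngp lowest.

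Basophil genes were partly shared. Hdc, which makes histamine, was at 241 and 325 CPM against 72.7 and 100, Fcer1a, the high-affinity IgE receptor chain, at 185 and 142 against 53.3 and 62.3, and Ifitm1 at 974 and 832 against 437 and 381; these 3 of 4 measured markers were higher, of 13 listed. Fcer1a was found in only 7 of 29 and 4 of 16 Epx-positive members. Of its UMIs, 40 of 43 labelled WT and all 14 labelled KO lay in cells of 4000 or more UMIs. The 3 cells labelled WT scored as doublets held 6, 7 and 7 of the 43, and 1 cell labelled KO held 8 of the 14. The comparison with the 351 and 397 basophils (5 or more UMIs of Mcpt8 and Prss34) was added after the data were seen. Against them 37 genes (1.55%) were higher and 148 (5.49%) lower. Prg2, Prg3, Ear6, Ldhc and Cebpe stayed among the higher genes, while Fcer1a, Cpa3, the mast cell carboxypeptidase, and Gata2 were lower, Cpa3 at 215 and 183 CPM against 2413 and 3216. Hdc and Cd63 were not called, at 0.671 and 0.643-fold and at 0.914 and 0.837-fold of the basophil level. The rule's limit on basophil proteases left out 7 and 9 cells, and 2 and 3 of these carried at least 100 Prg2 UMIs (426 to 904 and 636 to 1235).

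The Epx-positive members covered a wide range of depth and were divided at 4000 UMIs, with no cell between 3638 and 4764 UMIs labelled WT or between 2819 and 5133 labelled KO. In the library labelled WT 18 cells lay under 4000 UMIs, with a median of 1074.5, and 11 lay above, with a median of 20864. In the library labelled KO 8 cells lay on each side, with medians of 1252.5 and 11006.5. This division was also set after the data were seen. The rule asks for a fixed count of UMIs, so a shallow cell entered only with a larger share of rule gene UMIs. The same 2 Epx UMIs admitted a cell of 541 UMIs and another of 20869, both labelled WT. The contrasts of shallow and deep cells here and below may thus be set in part by the rule, which was not tested. The granule share was larger in the shallow cells: Prg2, Prg3 and Ear genes took a median of 5.97% and 4.60% of their UMIs, and 0.295% and 0.464% of those of the deep cells, which ranged from 0% to 11.5% and 8.44%. The mitochondrial share was alike, with medians of 1.31% and 1.53% in shallow and 2.01% and 1.83% in deep cells.

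Deep Epx-positive members carried azurophil transcripts at a higher level than shallow ones. Their median azurophil share was 1.53% and 1.20% of UMIs, above their median eosinophil granule share. Mpo had a median of 109 and 68 UMIs in deep cells and 1 and 1.5 in shallow cells. On CPM depth is divided out, but the effect of the rule's fixed count is not. Mpo was at 7213 against 1541 CPM in the library labelled WT. In the library labelled KO it was at 7011 against 1841 CPM. Of 2110 genes 19 (0.9%) were higher in deep than in shallow cells, among them Elane, Mpo, Prtn3 and Ctsg, and of 263 genes 10 (3.8%) were lower, among them Prg2, at 15412 against 48762 CPM and 9852 against 30458, Prg3 and Ear6. Ear1 and Ear2 came almost wholly from shallow cells, 19 of 20 and 8 of 9 UMIs labelled WT and all 2 and 11 labelled KO, and Ldhc in the library labelled KO wholly from deep cells. None of the 5 measured of 16 stem and early progenitor genes was called. Cd34, a surface protein of progenitors, was found in 10 of 11 and 8 of 8 deep cells and in 2 of 18 and 1 of 8 shallow ones, a count that depth can set, and on CPM it was at 112 against 77.0 and 219 against 167, the shallow values from 2 UMIs in each library. The 16 genes summed to 1053 CPM in deep and 1194 in shallow cells labelled WT, and to 1398 and 2176 in those labelled KO. Cebpe was at 310 against 462 CPM labelled WT, and in the library labelled KO it gave 51 UMIs in deep and 0 in shallow cells. The 13 basophil markers summed to 1834 and 1767 CPM in deep and 1233 and 502 in shallow cells, the last from 6 UMIs, and none of the 4 measured was called. Of the Epx-positive members 3 and 1 were scored as doublets, and the part of a second cell in a droplet was not tested.

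Cells on either side of the rule's threshold showed how thin it was for Siglecf. Exactly 2 UMIs were held by 42 and 20 members and at least 5 by 13 and 11. Just outside, 327 and 232 cells held exactly 1 UMI, of Siglecf in 251 and 195, of Epx in 58 and 29, of Ccr3 in 10 and 5 and of Il5ra in 8 and 3. Of the cells with a single Epx UMI, 20 and 5 carried at least 5 Prg2 UMIs, and 18 and 19 were basophils. A further look at Prg2 alone found 89 and 26 cells outside the members and basophils with at least 5 Prg2 UMIs, 34 and 9 of them with Prg3, at a median of 3040 and 1516 UMIs per cell.

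The Epx-negative members resembled the large population that expressed the azurophil genes. Cells with at least 10000 CPM of Elane, Mpo and Prtn3, called azurophil programme cells here, and counted without members and basophils, made up 46.7% and 32.5% of kept cells, and 34 of 36 and 14 of 18 Epx-negative members met the same threshold. Against those cells, 4 of 2626 genes (0.152%) were higher in Epx-negative members and 6 (0.229%) lower. The 4 higher genes, named after their values were seen, were Rgs1, a regulator of G protein signalling, at 124 against 36.9 CPM and 341 against 35.3, the lipid carrier Apoe, at 53.0 against 9.67 and 235 against 12.6, Nrgn and Ctla2a. These values rested on few cells: in the library labelled KO 1 cell held 26 of 58 Rgs1, 24 of 40 Apoe, 14 of 22 Nrgn and 22 of 32 Ctla2a UMIs, which were found in 4, 4, 3 and 3 of 18 cells, and in the library labelled WT 1 cell held 21 of 38 Apoe UMIs. Irf8, a factor of monocyte and dendritic cell fate, was lower, at 27.9 against 116 and 11.8 against 118 CPM. Elane was at 20822 against 16441 and 25004 against 20183 CPM, and Mpo at 8778 against 8194 and 8626 against 8473, within 2-fold in both. Elane and Mpo help define the azurophil programme cells, and most Epx-negative members met the same threshold, so these near levels are partly built in.

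Against all other kept cells, 6 genes (0.228%) were higher in Epx-negative members and 97 (3.51%) lower. The 6 were Elane, Prss57, a further azurophil serine protease, Vcam1, an adhesion molecule, at 132 against 44.1 and 159 against 53.7 CPM, Slc6a13, Nkg7 and Mgl2. None of 3 measured granule protein genes was higher and Prg2 was lower. All 7 measured monocyte markers were lower, as were 4 of 5 erythroid markers. Not every Epx-negative member fitted this description: 2 cells labelled WT and 4 labelled KO lay under the azurophil threshold, and 1 labelled KO held 169 Cd74 UMIs.

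Siglecf UMIs were spread at a low level over several marrow populations. A Siglecf UMI was found in 7.73% and 6.49% of azurophil programme cells (median 16483 and 9685 UMIs), in 7.12% and 4.79% of basophils (8289 and 4646), in 3.86% and 2.20% of granule-forming neutrophils (13075 and 5716), in 3.47% and 2.48% of erythroid cells (19700.5 and 14560.5) and in 0% and 2.35% of plasmacytoid dendritic cells (9416.5 and 3106). With each cell thinned to 2000 UMIs the share was 1.16% and 1.97% in azurophil programme cells and 0.498% and 0.313% in erythroid cells. Siglecf was at 4.45 and 6.24 CPM in azurophil programme cells and at 1.60 and 1.67 CPM in erythroid cells, which should lack it. In Epx-positive members labelled WT it was at 38.8 CPM (17.7 to 73.6) on 9 UMIs. In those labelled KO it was at 20.3 CPM (2.46 to 73.3) on 2 UMIs, below the floor of 3 counts. Siglecf is a gene of the rule, so its level in members is a description. Free RNA can give such UMIs, and its part in the Epx-negative members was not tested.

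These groups were counted without members, so cells with 2 or more UMIs of the rule genes had been left out, apart from basophils. In the same groups an Epx UMI was found in 0.569% and 0.192% of azurophil programme cells, in 0% of erythroid and of plasmacytoid dendritic cells in both libraries and in 6.84% and 6.80% of basophils. In Epx-positive members, Epx was at 1047 CPM (919 to 1187) and 1360 CPM, values the rule fixed in part. Of 53 cell barcodes kept in both marrow libraries, 1 was a member labelled WT and none was a member in both.

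Members with a Siglecf UMI, 41 and 20 cells, were also set against those without. Of 2657 genes 21 (0.79%) were higher and of 1941 genes 16 (0.824%) lower in members with the UMI. Camp, Ngp, S100a8, Elane and Prtn3 were among the higher genes and Prg2, Ikzf2 and Fcer1a among the lower. A member without Epx had to qualify through the other genes of the rule, so this contrast overlaps with the division by Epx by construction and is a description. Prg2 was at 1384 against 19037 CPM and 37.6 against 14696 CPM. Taking all 99 members as 1 set, 12 genes (0.449%) were higher and 95 (3.44%) lower than in other cells, and the 12 were Prg2, Prg3, Ear6, Ldhc, Ikzf2, Cebpe, Cd63, Hdc, Vat1, Rnf125, Abcb10 and Nkg7.

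Members made up 1.24% (0.955 to 1.57) of kept cells labelled WT and 0.532% (0.368 to 0.742) of those labelled KO, a ratio of 0.430 (0.276 to 0.661). Both groups were fewer in the library labelled KO: Epx-positive members at 0.551% and 0.250%, a ratio of 0.454 (0.230 to 0.864), and Epx-negative members at 0.684% and 0.281%, a ratio of 0.411 (0.220 to 0.744). The libraries differed in depth, with median UMIs of 13063.5 and 6521 per kept cell. When each cell was thinned to 2000 UMIs before the rule, 10 of 4791 and 11 of 5606 cells qualified, 0.209% and 0.196%, a ratio of 0.940 (0.362 to 2.47), and 471 and 790 shallower cells were left out.

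The Epx-positive share was also taken within the bands of depth set after the data were seen. Its intervals were apart only among cells under 4000 UMIs. Among cells under 4000 UMIs it was 2.16% (1.28 to 3.39) of 834 labelled WT and 0.381% (0.165 to 0.750) of 2097 labelled KO. Among deeper cells it was 0.248% (0.124 to 0.444) of 4428 and 0.186% (0.0804 to 0.366) of 4299, with overlapping intervals. The share of azurophil programme cells, from which most Epx-negative members came, was also lower in the library labelled KO, and within that population 1.36% and 0.667% were Epx-negative members. Share, depth and library cannot be told apart with 1 library per genotype, and a share here is of cells captured after progenitor enrichment, not of marrow.

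**Figure D4:**
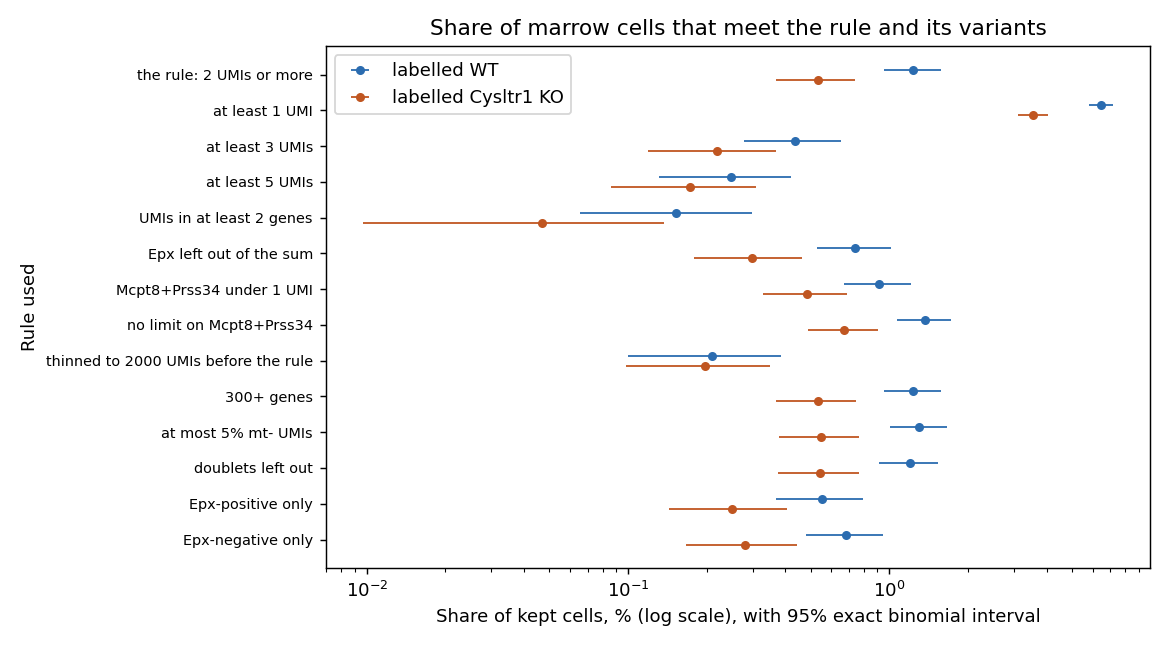
Share of kept cells that meet the rule (top) and each variant of it, in percent on a log scale, for the library labelled WT (blue) and the library labelled KO (orange), with 95% exact binomial intervals. The share labelled KO lies below that labelled WT for each variant, and the intervals overlap most when cells are thinned to 2000 UMIs.

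Levels within the members were compared between the libraries over all 65 and 34 cells, since the Epx-positive members labelled KO numbered under 20. Of 2673 genes 34 (1.27%) were at least 2-fold higher with intervals apart in the members labelled KO and 15 (0.561%) were lower. The other kept cells gave 21 of 2762 (0.76%) and 18 (0.652%) in the same comparison. The Epx-positive cells supplied 232106 of 949265 member UMIs labelled WT and 98530 of 268705 labelled KO, and the part of this mix in the differences was not tested.

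The 4 highest ratios came from 1 cell. Cd74, the class II invariant chain, gave 169 UMIs, all in 1 Epx-negative cell labelled KO, and H2-Eb1 and H2-Aa gave 32 and 68, all in 1 cell. H2-Ab1 gave 44 UMIs, 42 of them in 1 cell. In all, 12 of the 34 higher genes had at least 50% of their UMIs in 1 member, among them Retnlg, Ltf and Lyz2. Genes spread over more cells included Glo1, a glyoxalase, found in 28 of 34 cells labelled KO and 41 of 65 labelled WT at 327 and 119 CPM, and Ubl3, found in 14 and 13 cells. Glo1 was also over 2-fold higher in the other kept cells labelled KO, at a log2 ratio of 1.10 beside 1.45 in members. Ubl3 was at 0.347 in the other kept cells beside 1.91 in members.

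Of 5 granule protein genes measured between the libraries, 2 were higher in the members labelled KO, Prg3 at 521 against 240 CPM and Ear6 at 190 against 74.8 CPM. All UMIs of these 2 genes came from Epx-positive members, so both ratios also carry the mix of Epx-positive and Epx-negative cells. Among Epx-positive members alone, set side by side with no call, Prg3 was at 1421 (1195 to 1677) labelled KO and 982 (859 to 1118) labelled WT, Ear6 at 518 (385 to 681) and 306 (239 to 386), and Prg2 at 12352 and 19142 CPM. The Prg2 level rested much on single cells: 1 cell labelled WT held 1548 of 4443 UMIs, and without it Prg2 was at 13259 CPM there, while 1 cell labelled KO held 414 of 1217, and without it Prg2 was at 8598 CPM. Among the lower genes, Ccl4, a chemokine of activated myeloid cells and basophils, gave 7 UMIs in 6 cells labelled KO and 247 UMIs in 19 cells labelled WT, of which 69 were in 1 cell. Ass1 and Wdr74 were at 26.1 CPM each against 80.1 and 81.1, and F13a1 and Idh3a completed the 5 lowest. None of the 15 lower genes was 2-fold lower in the other kept cells, whereas 10 of the 34 higher genes were also at least 2-fold higher there.

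**Figure D5:**
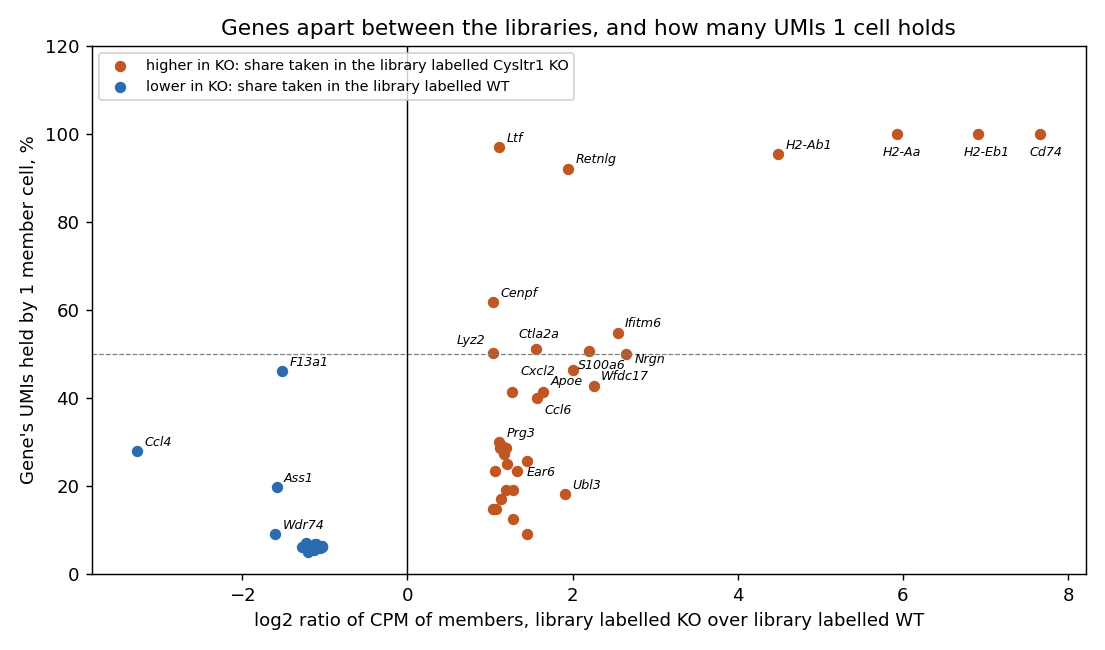
Genes at least 2-fold apart between the members of the libraries with counting intervals apart: log2 ratio of CPM labelled KO over labelled WT (x) against the percent of the gene's member UMIs held by 1 cell (y), taken in the library where the gene is higher. The class II genes H2-Aa, H2-Eb1 and Cd74 stand at 100%, and the dashed line marks 50%.

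The same rule applied to the other tissues picked different cells. In spleen it was met by 83 of 8972 cells labelled WT (0.925%) and 115 of 8264 labelled KO (1.39%). Ccr3 was found in 63 and 97 of these cells, Siglecf in 20 and 6 and Il5ra in 5 and 14. The spleen cells picked had 0 UMIs of Epx, Prg3 and Ear6, and 57 and 92 of them held C1qa, a complement gene of macrophages. Over the cells picked C1qa was at 2631 and 2462 CPM, against 22.5 and 26.5 in other spleen cells. Spic, a factor of red pulp macrophages, was at 831 and 1099 CPM. In tumor the rule was met by 7 and 3 cells, with 0 UMIs of Epx and Prg2. No cell picked in spleen or tumor held an Epx UMI, where a count of 0 allows up to 5.84 and 3.39 CPM of Epx in the spleen cells picked.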

How the data were processed

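Single-cell RNA libraries of marrow were analysed, 1 per genotype, each from 3 pooled mice. The deposited matrices hold counts of UMIs per gene and barcode, with no normalization by the authors. Cell Ranger 6.0.0 and mm10 are named per the submitters' processing notes, but version 6.1.0 stands in the matrices, per the file headers. Both a 5′ and a 3′ kit are named per the labels' protocols, so which end was read is not settled, and use of strand in counting is not given in the sources used here. Total counts were 75873784 UMIs labelled WT and 47481894 labelled KO.

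Of 5852 and 6638 barcodes, 5262 and 6396 passed the limits on genes, UMIs and mitochondrial share. Counts were summed over the cells of a set and given as CPM of the set, with a pseudocount of 1 CPM in log2 ratios. Ratio intervals were exact and conditional on the total. Doublets were kept in the main values and scored against simulated doublets for an alternative that removed 0.8% of barcodes per 1000 barcodes. Thinning drew 2000 UMIs per cell without replacement. Calls and intervals were tested on simulated Poisson counts of whole sets, without variation between cells. Such counts cannot show how often a single cell sets a call. Of 32285 gene IDs 32235 matched the GENCODE annotation of the build. Promoters came from RefSeq, matched by symbol.

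Named genes were the genes of the rule, the 25 highest and 10 lowest ratios by the smaller of the 2 libraries, the most abundant members of each gene list, and the 5 highest and 5 lowest between libraries, leaving out ribosomal, mitochondrial, haemoglobin and sex-linked genes. The members and gene lists were chosen with earlier results of these data known. Alternatives changed the rule, the filters, the pseudocount, the thinning and the way cells were averaged. Analyses used Python 3.11.15, numpy 2.4.6, scipy 1.17.1, pandas 2.3.3 and scikit-learn 1.9.0.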

Additional observations from a re-analysis of the deposited data

Results flagged for a closer look

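The share of cells that met the rule ran in opposite directions between the labels in 2 tissues. The ratio of the library labelled KO to that labelled WT was 0.430 (95% interval 0.276 to 0.661) in marrow and 1.50 (1.12 to 2.02) in spleen, each from 1 library per genotype, and the difference between the tissues was not tested. In tumor the ratio was 0.581 (0.0970 to 2.55) on 7 and 3 cells. The cells picked in spleen held no Epx, Prg3 or Ear6 UMIs, so the ratios concern different cells. For each tissue the library with the larger share was also the deeper one. Kept marrow cells had a median of 13063.5 UMIs labelled WT against 6521 labelled KO. The spleen medians were 3056.5 against 3760.5, the tumor medians 3588 against 2622. With marrow cells thinned to 2000 UMIs before the rule, the ratio was 0.940 (0.362 to 2.47). Thinning left out the cells under 2000 UMIs, among them 13 of 29 and 6 of 16 Epx-positive members. Among kept marrow cells under 4000 UMIs the ratio of Epx-positive shares was 0.177 (0.0665 to 0.427). Among deeper ones it was 0.749 (0.262 to 2.04). Depth and library cannot be told apart in marrow. The part of depth in the spleen and tumor ratios was not tested.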

How the results depend on the processing

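No paired analysis was possible because each genotype has 1 library per tissue, so no replicate could be left out either. Under other forms of the rule, the share labelled WT and the share labelled KO were 6.48% and 3.55% from 1 UMI, 0.437% and 0.219% from 3 UMIs, 0.247% and 0.172% from 5 UMIs, 0.152% and 0.0469% with UMIs in 2 of the genes, 0.741% and 0.297% without Epx in the sum, 0.551% and 0.250% for Epx-positive and 0.684% and 0.281% for Epx-negative members, and 0.209% and 0.196% after thinning to 2000 UMIs. With Mcpt8 and Prss34 under 1 UMI the share labelled WT was 0.912%. The ratio of the shares stayed under 1 in all 13 settings and moved out of its interval at 5 UMIs (0.696) and after thinning (0.940). Its own interval included 1 at 3 UMIs (0.238 to 1.02) and 5 UMIs (0.282 to 1.68). It also did so with UMIs in 2 genes (0.0527 to 1.29) and after thinning (0.362 to 2.47).

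For all members against other cells, the genes called higher went from 12 to 7 with a pseudocount of 10 CPM, 44 with the mean of per-cell CPM, 51 with members from 5 UMIs and 22 with UMIs in 2 genes; the genes called lower went from 95 to 178 with no limit on CPM, 182, 149 and 29 in the same last 3 settings. Granule protein genes called higher went from 3 to 5 with the mean of per-cell CPM.

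For Epx-positive members, the higher genes went from 51 to 24 at 50 UMIs, 12 after thinning, 122 with the mean of per-cell CPM, 20 with UMIs in 2 genes and 31 in cells of 4000 or more UMIs, and the lower genes from 90 to 36 after thinning, 335 with the mean of per-cell CPM, 149 from 5 UMIs, 28 with UMIs in 2 genes and 40 in cells under 4000 UMIs. The 5 granule protein genes became 3 at 50 UMIs, after thinning, from 5 UMIs, with UMIs in 2 genes and in cells of 4000 or more UMIs, and neutrophil markers lower went from 12 to 7 in cells under 4000 UMIs. Of 154 values of 14 single genes, 128 kept direction and call, 19 kept direction without the call and 7 turned: Ear1 from 5 UMIs (-1.47), with UMIs in 2 genes (-1.47) and in deep cells (-1.45), Ear2 with UMIs in 2 genes (-3.44) and in deep cells (-3.42), and Ldhc (-2.62) and Cebpe (-6.96) in cells under 4000 UMIs, where 1 library had 0 UMIs.

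Between the libraries, the 34 higher genes became 61 with no limit on CPM, 15 after thinning, 212 with the mean of per-cell CPM, 13 from 5 UMIs and 21 in Epx-positive members, and the 15 lower genes 33, 9, 141 (the first 3 of these settings), 39 with UMIs in 2 genes and 25 in Epx-positive members. The settings for thinning, 5 UMIs, 2 genes, depth and Epx use fewer cells; for the others the cause was not tested. The divisions by Epx and by depth were chosen after seeing the data, as were the comparisons with basophils and azurophil programme cells. So was the Prg2 level without its highest cell. With only the highest cell labelled WT left out, the ratio of Prg2 labelled KO to WT in Epx-positive members went from 0.645 to 0.932. The highest cell labelled KO held 414 of 1217 Prg2 UMIs. With the highest cell of each library left out, Prg2 was at 8598 CPM labelled KO and 13259 labelled WT, so the ratio of 0.932 depends on leaving out 1 side only.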
